A study of Mus musculus with 8 samples.

Results

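PD-0325901 is an inhibitor of the kinases MEK1 and MEK2, given by mouth. The 4 arrays of tumours that received it, alone or together with rapamycin, were compared with the 4 arrays of tumours that did not, out of 8 arrays in all, so every array of the series is used. All samples are primary malignant peripheral nerve sheath tumours (MPNST) of the NPcis mouse. That model carries Nf1 and Trp53 mutations in cis on 1 chromosome, and its tumours arise after the remaining normal alleles are lost, so the vehicle controls carry the same lesions. The 4 arrays without PD-0325901 are 2 of vehicle-treated tumours and 2 of tumours given rapamycin, an mTORC1 inhibitor, at 5 mg/kg by intraperitoneal injection. The 4 arrays with it are 2 of tumours given PD-0325901 by gavage, 2 times a day with 1.5 mg/kg each time, and 2 of tumours given both drugs at these doses, called the combination here. Treatment lasted 14 hours in every group, so no other time point or dose can be set beside it. A whole tumour contains vessels, stroma and leukocytes beside the tumour cells, and the labels name neither a sort nor a count of cells. Nothing in the labels states that the arrays of a group come from separate animals, so a p-value below measures only the spread between these arrays.

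MEK1 and MEK2 phosphorylate ERK, the last kinase of the cascade that Ras starts. Neurofibromin, the product of Nf1, switches Ras off, so tumours without it signal through this cascade. ERK switches on early genes such as Fos and Egr1, then a later set that includes its own inhibitors (the Sprouty and Spred proteins and the dual-specificity phosphatases) and growth factors of the EGF family. Tumours of peripheral nerve also hold many macrophages. Macrophages and dendritic cells read nucleic acids through endosomal Toll-like receptors and show peptides to T cells on MHC class II molecules, whose genes are switched on together by the co-activator Ciita.

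The files give 1 log2 value per probe set and array. Each of 19938 genes was represented by 1 probe set, and a level is comparable only between arrays, not between genes. Array medians lay between 7.79 and 7.90, and pairs of arrays correlated at 0.961 to 0.986 over all probe sets. In the label check, Sox10 read between 7.85 and 8.17, S100b between 7.12 and 7.32 and Erbb3 between 7.25 and 7.56 over the 8 arrays. These are defining Schwann lineage genes, and the files hold no detection call that would say whether such levels are above background. Nf1 read 10.26, 10.49, 9.98 and 10.46 without the drug and 10.20, 10.11, 9.72 and 10.07 with it, with a difference of -0.27 (SE 0.15, adjusted p = 0.608); the part of the gene that the probe set covers is not given, so this checks no label. Xist, the X-inactivation transcript, was at 10.70 to 11.58 on both rapamycin arrays, PD-0325901 array 2 and combination array 2, where the mean of 3 Y-linked transcripts was 5.57 to 5.82. On both vehicle arrays, PD-0325901 array 1 and combination array 1 Xist was at 5.91 to 7.09 and the Y-linked mean at 8.17 to 9.81. Each side of the PD-0325901 comparison therefore has 2 arrays of each kind. Within the settings without and with rapamycin this balance does not hold. Both vehicle arrays are of 1 kind and both rapamycin arrays of the other, while PD-0325901 and the combination have 1 of each. A difference from vehicle alone or from rapamycin alone is therefore mixed in part with this pattern. PD-0325901 array 2 also stood apart in Alas2, the haem synthesis enzyme of red cell precursors, at 11.50 against 7.53 to 8.74 on the other 7 arrays.

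The comparison asks what MEK inhibition changes in these tumours with and without rapamycin. Genes known from antigen-presenting and nucleic-acid-sensing leukocytes, among others, rose with PD-0325901 and a single cytokine receptor chain fell. In whole tumours a change in the number of cells of a type and a change in RNA per cell cannot be told apart. In limma's fit of 2 groups of 4 arrays, 22 of 19938 genes passed an adjusted p of 0.05 (Benjamini-Hochberg over all genes), which is 0.11% of those tested. Of these 21 rose (0.105%) and 1 fell (0.00502%). Fold changes ran from 1.45 to 2.75. On every array with the drug each of the 22 genes lay beyond all 4 arrays without it. That was also so of 666 genes on the higher side (3.34% of all) and of 477 on the lower side (2.39%), 1143 in either direction (5.73%). At an unadjusted p under 0.05 there were 2010 genes, 1135 higher and 875 lower (910 and 1103 with each array centred on its median).

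The number called depended on single arrays. Leaving out the first or the second vehicle array gave 5 and 7 calls, and the first or the second rapamycin array 65 and 4. For the PD-0325901 arrays the counts were 2 and 0, and for the combination arrays 0 and 2, in the same order. Across these fits the differences of the 22 genes stayed between 0.877 and 1.11 times their full value. With the Xist and Y-linked pattern as a term, 1 gene passed (Cd300c2, adjusted p = 0.0423) and 21 of the 22 had an adjusted p under 0.1. With rapamycin as a term, 0 genes passed, the smallest adjusted p being 0.0514.

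**Figure D1:**
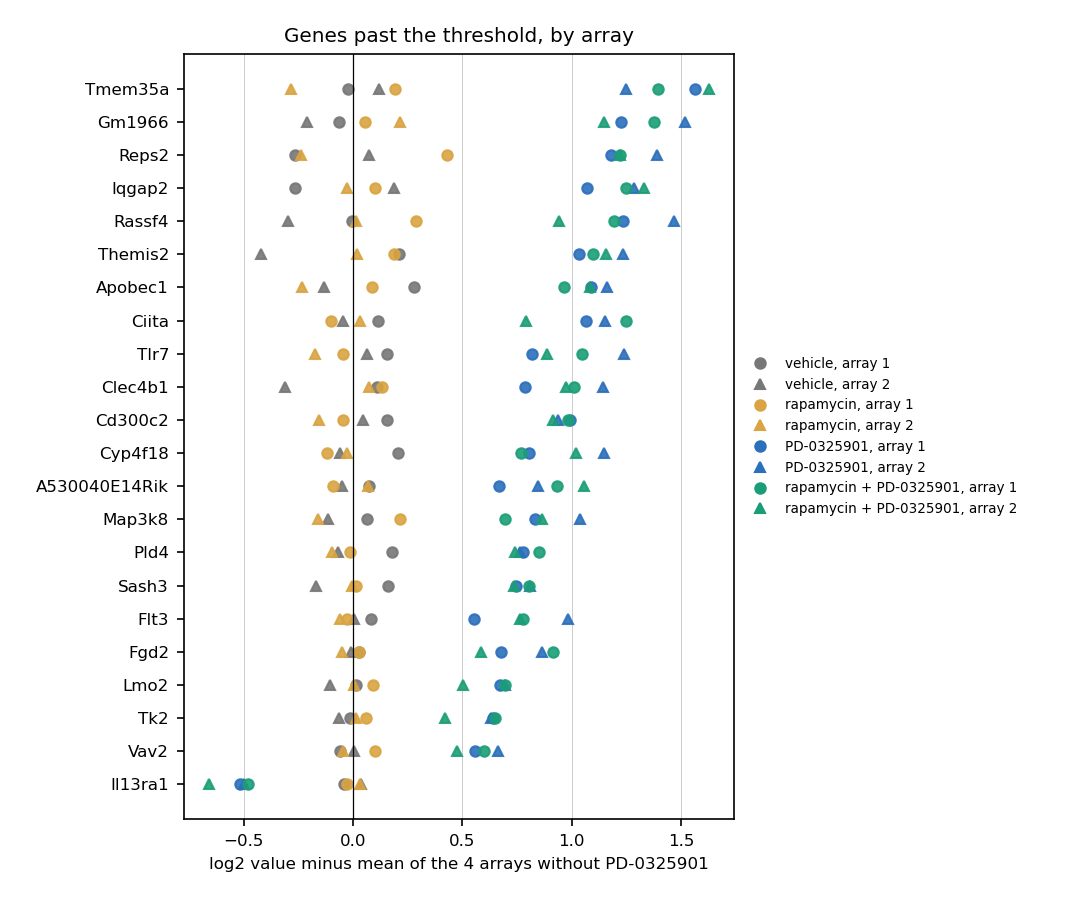
Each row is 1 of the 22 genes past the threshold, and each point is 1 array: its log2 value minus the mean of the 4 arrays without PD-0325901 (horizontal axis). Grey and yellow points (vehicle, rapamycin) stay around 0, and blue and green points (PD-0325901, combination) lie apart from them in every row, to the left for Il13ra1 and to the right for the other 21 genes.

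Values below are given in the order vehicle arrays 1 and 2, rapamycin arrays 1 and 2 for the arrays without the drug, and PD-0325901 arrays 1 and 2, combination arrays 1 and 2 for those with it. Here and below "the drug" is PD-0325901 and "treated" means given PD-0325901, with or without rapamycin. Ciita (probe set 10433507, chromosome 16), which switches on MHC class II genes, read 8.11, 7.95, 7.90 and 8.03 without the drug and 9.06, 9.15, 9.24 and 8.79 with it. It rose 2.09-fold (1.06, SE 0.11, adjusted p = 0.0281). The lowest array with the drug, combination array 2, lay well above the highest array without it. Lmo2 (probe set 10474201, chromosome 2), a LIM-domain partner of blood-lineage transcription factors, read 9.90, 9.78, 9.98 and 9.89 without the drug and 10.56, 10.58, 10.58 and 10.39 with it. Its rise was 0.64 (SE 0.07, adjusted p = 0.0413), with combination array 2 again the lowest of the treated arrays.

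Receptors of myeloid cells made up a group of 4 of the genes that rose. Cd300c2 (probe set 10392815, chromosome 11), a CD300 family receptor, had the smallest p of all genes and read 9.70, 9.59, 9.50 and 9.39 without the drug and 10.54, 10.49, 10.53 and 10.46 with it. The 4 treated arrays agree within 0.1 log2, and the rise was 1.94-fold (0.96, SE 0.08, adjusted p = 0.0190). Tlr7 (probe set 10607870, chromosome X), the endosomal receptor for single-stranded RNA, read 9.46, 9.37, 9.26 and 9.13 without the drug and 10.12, 10.54, 10.35 and 10.19 with it. PD-0325901 array 2 was the highest and PD-0325901 array 1 the lowest of the treated arrays, and the gene rose 2.00-fold (1.0, SE 0.11, adjusted p = 0.0397). Flt3 (probe set 10535780, chromosome 5), the growth factor receptor of dendritic cell precursors, read 7.54, 7.47, 7.43 and 7.41 without the drug and 8.02, 8.44, 8.24 and 8.23 with it. It rose by 0.77 (SE 0.10, adjusted p = 0.0413). Clec4b1 (probe set 10541581, chromosome 6), a myeloid C-type lectin, read 5.57, 5.15, 5.59 and 5.53 without the drug and 6.25, 6.60, 6.47 and 6.43 with it. Vehicle array 2 was clearly lower than the other arrays without the drug, and the rise was 0.98 (SE 0.12, adjusted p = 0.0413).

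A further 8 genes that rose encode signalling adaptors, scaffolds, exchange factors or kinases. Iqgap2 (chromosome 13), a scaffold of the cytoskeleton, read 8.90, 9.36, 9.27 and 9.14 without the drug and 10.24, 10.45, 10.42 and 10.50 with it. Rassf4 (chromosome 6), which carries a Ras association domain, read 9.23, 8.94, 9.52 and 9.25 without the drug and 10.47, 10.70, 10.43 and 10.18 with it. Reps2 (chromosome X), an endocytosis adaptor linked to the Ral pathway, read 7.30, 7.64, 7.99 and 7.32 without the drug and 8.74, 8.95, 8.78 and 8.78 with it. These rose by 1.23 (SE 0.11), 1.21 (SE 0.15) and 1.25 (SE 0.16), and rapamycin array 1 is the highest array without the drug for Rassf4 and Reps2. Themis2 (chromosome 4), a signalling protein of B cells and macrophages, read 9.98, 9.35, 9.95 and 9.79 without the drug and 10.80, 11.001, 10.86 and 10.92 with it, with vehicle array 2 the lowest. Sash3 (chromosome X), an adaptor of lymphocytes, read 9.29, 8.96, 9.15 and 9.13 without the drug and 9.88, 9.94, 9.94 and 9.87 with it. These latter 2 rose by 1.13 (SE 0.14) and 0.77 (SE 0.08), with adjusted p = 0.0413 and 0.0308. Fgd2 (chromosome 17) and Vav2 (chromosome 2), guanine nucleotide exchange factors, rose by 0.76 (SE 0.09) and 0.57 (SE 0.07). Map3k8 (chromosome 18), the kinase that feeds MEK downstream of Toll-like receptors, read 8.65, 8.47, 8.80 and 8.42 without the drug and 9.42, 9.62, 9.28 and 9.45 with it. It rose 1.81-fold (0.86, SE 0.11, adjusted p = 0.0447), with combination array 1 the lowest of the treated arrays.

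The remaining genes that rose are enzymes, a chaperone and 2 predicted genes. Pld4 (chromosome 12), a nuclease of endolysosomes, read 11.25, 11.001, 11.06 and 10.97 without the drug and 11.85, 11.83, 11.92 and 11.81 with it, and it rose by 0.78 (SE 0.08, adjusted p = 0.0281). Apobec1 (chromosome 6), the cytidine deaminase that edits apolipoprotein B mRNA, read 10.61, 10.20, 10.42 and 10.10 without the drug and 11.42, 11.49, 11.30 and 11.41 with it, and it rose by 1.07 (SE 0.12). Both genes put vehicle array 1 at the top of the arrays without the drug. Cyp4f18 (chromosome 8), which inactivates leukotriene B4, rose by 0.94 (SE 0.11), and Tk2 (chromosome 8), the mitochondrial thymidine kinase, by 0.59 (SE 0.07). Tmem35a (probe set 10601701, chromosome X), a chaperone of acetylcholine receptors, read 6.92, 7.06, 7.13 and 6.66 without the drug and 8.50, 8.19, 8.34 and 8.57 with it. It had the largest fold of the 22 genes, 2.75 (1.46, SE 0.13, adjusted p = 0.0190), with all treated arrays more than 1 log2 unit above all others. The predicted genes Gm1966 and A530040E14Rik rose by 1.32 (SE 0.12) and 0.88 (SE 0.10).

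MHC class II genes were higher on the arrays with PD-0325901, from their co-activator to the chains and the enzyme that prepares the groove. Of 13 measured genes of this pathway all 13 had a difference above 0 (46% of all genes did), 10 had an unadjusted p under 0.05 (5.69% of all genes did on this side), 9 had arrays that did not overlap (3.34%) and 1, Ciita, was called (0.105%). The median difference was 0.47, against -0.01 over all genes. The groups of genes in this and in every other list below were chosen with earlier results of these data known, so these counts are a description. Shares over all genes to set beside each list are 5.69% (higher) and 4.39% (lower) at an unadjusted p under 0.05. For groups apart they are 3.34% and 2.39%, and for called genes 0.105% and 0.00502%.

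Sequences upstream of class II genes are shown because class II promoters share an arrangement, the X box and Y box, to which the factors that recruit Ciita bind. RefSeq promoter sequences (GRCm38.p6, 250 bases before to 50 after the start) were at hand for 9 of the 13 genes. The strings searched on both strands were AGCAAC (the core of the X box), ATTGG (the Y box, an inverted CCAAT) and TGACGTCA (a cyclic AMP response element, as in the X2 box), and none overlaps another in the lines below. Each line gives the stretch from 140 to 21 bases before the first transcribed base, 5′ to 3′ on the gene's own strand, with these strings in capitals where they read on that strand. A match on the opposite strand, such as the ccaat near the end of the H2-Eb1 line, is left in lower case.
H2-Eb1: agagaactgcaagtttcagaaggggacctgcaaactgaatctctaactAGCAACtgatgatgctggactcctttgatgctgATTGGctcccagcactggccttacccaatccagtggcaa
H2-Eb2: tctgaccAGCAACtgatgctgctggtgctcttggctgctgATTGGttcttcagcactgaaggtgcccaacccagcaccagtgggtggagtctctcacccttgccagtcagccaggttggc
H2-Oa: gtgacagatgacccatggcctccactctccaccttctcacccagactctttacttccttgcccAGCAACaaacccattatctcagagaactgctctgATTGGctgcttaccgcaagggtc
H2-Ob: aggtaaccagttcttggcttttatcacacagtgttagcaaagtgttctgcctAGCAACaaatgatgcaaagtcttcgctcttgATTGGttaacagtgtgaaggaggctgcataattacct
H2-Aa: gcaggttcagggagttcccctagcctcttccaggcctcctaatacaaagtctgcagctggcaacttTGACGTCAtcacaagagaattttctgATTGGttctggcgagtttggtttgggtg
H2-Eb1 lies at chr17:34305727-34305846, H2-Eb2 at chr17:34325535-34325654, H2-Oa at chr17:34092239-34092358 and H2-Ob at chr17:34238765-34238884, all on the plus strand, and H2-Aa at chr17:34287844-34287963 on the minus strand. AGCAAC starts at -92, -133, -77 and -88 in the first 4 and is followed after 27, 27, 28 and 25 bases by ATTGG. H2-Aa holds TGACGTCA at -74 and ATTGG at -48, 18 bases apart. AGCAAC followed by ATTGG on the same strand with 20 to 30 bases between them was found in 4 of the 9 class II pathway promoters and in 0.17% of 32851 promoters of the same length. That spacing was set after these promoters had been read. Singly, AGCAAC was in 14.8%, ATTGG in 37.4% and TGACGTCA in 1.79% of all promoters. These matches describe letters and were not tied to the arrays by any test.

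H2-Eb1, the beta chain of the E molecule, read 10.77, 10.75, 10.12 and 10.30 without the drug and 11.50, 11.56, 11.40 and 11.09 with it, a difference of 0.90 (SE 0.17, adjusted p = 0.110). H2-Aa, the alpha chain of the A molecule, read 11.68, 11.58, 11.03 and 11.03 without the drug and 12.38, 12.45, 12.19 and 11.91 with it, a difference of 0.90 (SE 0.19, adjusted p = 0.133). H2-Ab1, its beta chain, read 11.85, 11.65, 11.07 and 11.32 without the drug and 12.55, 12.52, 12.40 and 11.98 with it, a difference of 0.89 (SE 0.20, adjusted p = 0.149). All 3 genes put the treated arrays above those without the drug, with the rapamycin arrays the lowest of the 8 and combination array 2 the lowest of the treated. Cd74, the invariant chain that fills the groove, read 12.13, 11.99, 11.86 and 11.74 without the drug and 12.72, 12.80, 12.64 and 12.26 with it, a difference of 0.67 (SE 0.14, adjusted p = 0.126). Ctss, the protease that trims the invariant chain, read 11.53, 11.46, 11.06 and 11.22 without the drug and 11.85, 11.90, 11.78 and 11.83 with it, a difference of 0.52 (SE 0.11, adjusted p = 0.131). Neither gene's groups overlapped. H2-Oa and H2-Ob, the chains of the modulator that restrains peptide loading, had differences of 0.35 (SE 0.12) and 0.31 (SE 0.12). For H2-DMa, a chain of the loading catalyst, the value was 0.47 (SE 0.22) with overlapping groups, and for H2-Eb2 it was 0.26 (SE 0.14). The X-box factors Rfx5, Rfxank and Rfxap had differences of 0.27, 0.42 and 0.05 (SE 0.10, 0.14 and 0.08), and Rfxap's turned to -0.015 without combination array 1. None of these genes besides Ciita passed the threshold. On the class II score, which is the mean of the members' centred log2 values on an array, the treated arrays ran from 0.12 to 0.35 and the others from -0.46 to -0.12. Macrophage and dendritic cell markers moved the same way (below), and their part in these differences was not tested. Class II chains, like lectins and CD300 receptors, have close paralogs, and cross-hybridisation between their probe sets was not tested.

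**Figure D2:**
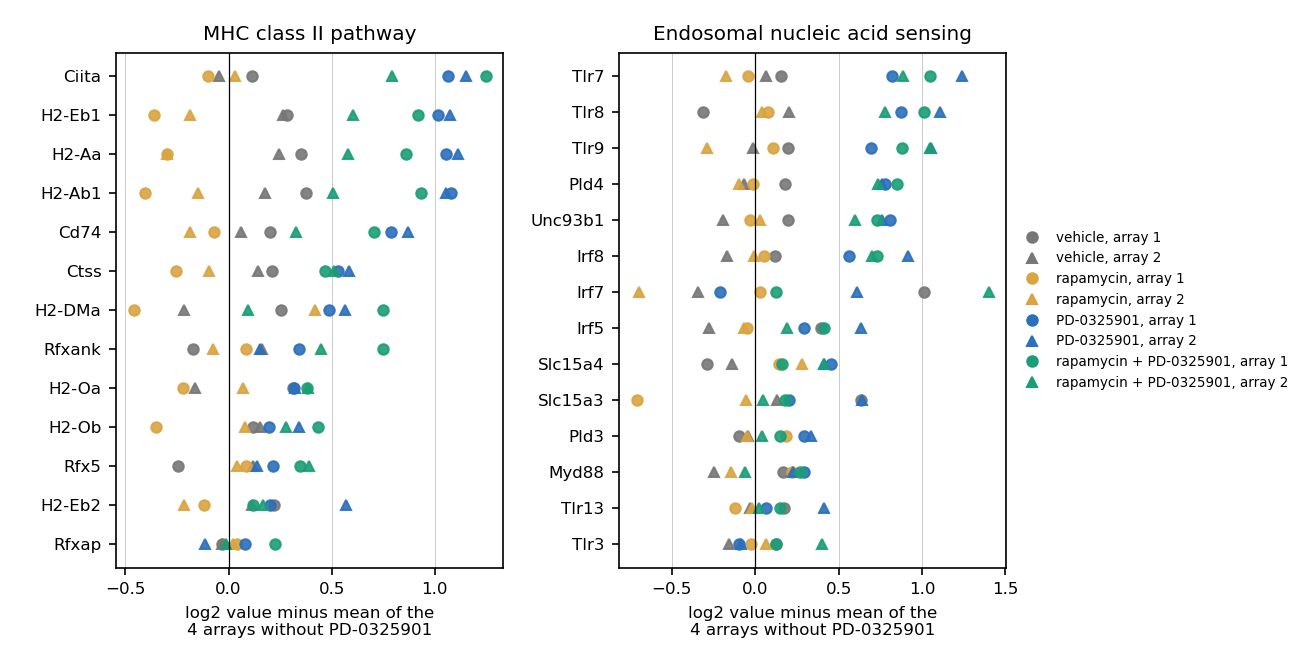
Left, the 13 measured genes of the MHC class II pathway; right, the 14 measured genes of endosomal nucleic acid sensing. Points are single arrays, as log2 value minus the mean of the 4 arrays without PD-0325901; blue and green points lie to the right of grey and yellow ones without overlap for 9 genes on the left and 6 on the right, and overlap for the rest.

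Endosomal sensors of nucleic acids, with the proteins that traffic them, were higher as well. All 14 measured members had a difference above 0 (Tlr3 by 0.09, and by -0.018 without combination array 2), as 46% of all genes did. Of them 8 had an unadjusted p under 0.05 (5.69% of all genes on this side) and 6 had groups that did not overlap (3.34%). Called were 2, Tlr7 and Pld4 (0.105%). The median was 0.43. Tlr8, neighbour of Tlr7 on the X chromosome, read 9.17, 9.68, 9.56 and 9.52 without the drug and 10.36, 10.59, 10.49 and 10.26 with it, a difference of 0.94 (SE 0.13, adjusted p = 0.0520). Tlr9, the receptor for unmethylated DNA, read 9.74, 9.53, 9.65 and 9.25 without the drug and 10.24, 10.59, 10.42 and 10.59 with it, a difference of 0.92 (SE 0.13, adjusted p = 0.0610). Unc93b1, which carries these receptors to the endosome, read 11.23, 10.84, 11.01 and 11.06 without the drug and 11.84, 11.79, 11.77 and 11.63 with it, a difference of 0.72 (SE 0.10, adjusted p = 0.0506). Each of the 3 missed the threshold by little, and in each the treated arrays stood apart from all others. Irf8, a transcription factor of macrophages and dendritic cells, read 10.02, 9.73, 9.95 and 9.89 without the drug and 10.46, 10.81, 10.63 and 10.59 with it, a difference of 0.73 (SE 0.10, adjusted p = 0.0543). Irf5, which acts downstream of these receptors, read 9.71, 9.05, 9.27 and 9.25 without the drug and 9.61, 9.95, 9.73 and 9.51 with it, where vehicle array 1 lay among the treated arrays (difference 0.38, SE 0.16). Slc15a4, an endolysosomal transporter needed by this pathway, had a difference of 0.36 (SE 0.14), 0.65 without and 0.07 with rapamycin. Among 7 surface Toll-like receptor genes the median was 0.43, 4 had an unadjusted p under 0.05, and the arrays stood apart for Tlr1 alone, which pairs with Tlr2 (0.61, SE 0.12, adjusted p = 0.105).

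CD300 receptors and C-type lectins of myeloid cells had a median of 0.54. Of 20 members 16 lay above 0 and 2 were called (Cd300c2 and Clec4b1; 0.105% of all genes on this side). The groups did not overlap for 8 on the higher side (3.34% of all genes) and 1 on the lower side (2.39%). Clec4a3 read 9.70, 9.33, 10.32 and 9.71 without the drug and 10.98, 10.93, 10.69 and 10.82 with it, a difference of 1.09 (SE 0.19, adjusted p = 0.0932). Clec4a1 read 9.44, 9.91, 10.36 and 9.46 without the drug and 10.85, 11.04, 10.57 and 10.64 with it, a difference of 0.98 (SE 0.22, adjusted p = 0.154). Both are lectins of myeloid cells, and in both rapamycin array 1 was the highest array without the drug. Cd300ld, an activating CD300 receptor, had a difference of 0.75 (SE 0.17). Klra2, a Ly49 family receptor, went the other way and read 8.99, 8.23, 7.82 and 8.28 without the drug and 6.17, 6.39, 7.23 and 7.28 with it. Its difference of -1.56 (SE 0.33, adjusted p = 0.132) was -2.33 against vehicle and -0.80 against rapamycin.

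Of 15 macrophage markers 13 lay above 0 and 2 below it, and none was called. On the higher side 10 had an unadjusted p under 0.05 (5.69% of all genes) and 6 had groups apart (3.34%), with 0 of either on the lower side, and the median was 0.43. Siglec1, the sialic acid receptor of tissue macrophages, read 10.40, 9.96, 9.87 and 10.12 without the drug and 10.68, 11.27, 11.08 and 11.01 with it, a difference of 0.92 (SE 0.15, adjusted p = 0.0870). Adgre1, the F4/80 antigen, read 11.16, 10.90, 10.69 and 10.91 without the drug and 11.67, 11.57, 11.53 and 11.42 with it, a difference of 0.63 (SE 0.11, adjusted p = 0.0870). Trem2, a lipid receptor, read 10.45, 10.25, 10.56 and 10.32 without the drug and 11.29, 11.09, 10.91 and 10.78 with it, a difference of 0.63 (SE 0.12, adjusted p = 0.117). None of these 3 overlapped between the groups. Csf1r, the receptor on which macrophages depend, read 11.67, 11.39, 11.59 and 11.48 without the drug and 12.19, 12.18, 12.22 and 11.72 with it, where combination array 2 was only just above the highest array without the drug. Mertk, which binds dying cells, had a difference of 0.90 (SE 0.22). The macrophage score overlapped, at -0.13 to 0.42 with the drug and -0.37 to -0.06 without, since combination array 2 sat at -0.13. Fc receptors and complement genes had a median of 0.37 over 15 members, of which 4 had groups apart (3.34% of all genes on this side). Among them were C3ar1, the receptor of complement fragment C3a (0.72, SE 0.12, adjusted p = 0.0870), the high-affinity Fc receptor Fcgr1 (0.84, SE 0.16) and the inhibitory Fc receptor Fcgr2b (0.65, SE 0.12). Itgax, the CD11c integrin, read 9.59, 8.11, 7.91 and 8.85 without the drug and 7.89, 8.49, 7.90 and 8.16 with it, with a difference of -0.51 (SE 0.36), so that myeloid genes did not all lie on the higher side.

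Markers of conventional dendritic cells had a median of 0.51 over 16 genes, and 1, Flt3, was called (0.105% of all genes on this side). On the higher side 7 were apart (3.34% of all genes). On the lower side 1 was apart (2.39%), Fscn1, named after the values were seen. The median was 0.26 without PD-0325901 array 2. Kmo, the kynurenine hydroxylase, read 6.85, 7.35, 7.13 and 6.97 without the drug and 8.51, 8.17, 7.98 and 7.64 with it, a difference of 1.0 (SE 0.19, adjusted p = 0.108). Batf3 and Xcr1, a transcription factor and a chemokine receptor of cross-presenting cells, read 8.22, 8.21, 8.14 and 8.15 without the drug and 8.49, 8.70, 8.34 and 8.49 with it, and 7.31, 7.15, 6.89 and 7.24 without the drug and 7.40, 8.14, 7.85 and 7.61 with it. Their differences were 0.32 (SE 0.08) and 0.60 (SE 0.17), with no overlap of the groups. Clec9a, their receptor for dead cells, read 6.46, 6.41, 6.69 and 6.45 without the drug and 6.56, 7.65, 7.77 and 7.70 with it. Here PD-0325901 array 1 stayed at the level of the arrays without the drug while the other treated arrays were more than 0.9 higher. Without that array the difference was 1.21 (SE 0.09, adjusted p = 0.0349, limma). Leaving out the array that disagrees favours a small p, so passing the threshold there is only a description. Of 11 plasmacytoid dendritic cell markers 4 had groups apart (3.34% of all genes on this side), namely Cd300c2, Tlr7, Tlr9 and Siglech (0.54, SE 0.13). The list's median was 0.28, and 0.18 without combination array 2. Monocyte markers were mixed, with 7 of 9 above 0 and 1 apart on each side, and their median of 0.39 was 0.63 when PD-0325901 array 1 was left out and 0.69 for combination array 1. Nr4a1 was the one apart on the lower side. Ccr2, the receptor that draws monocytes into tissue, read 9.55, 8.58, 9.82 and 9.93 without the drug and 11.05, 10.61, 10.92 and 10.56 with it, a difference of 1.31 (SE 0.29, adjusted p = 0.155), with vehicle array 2 low.

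Cytotoxic lymphocyte markers showed larger differences and a wider spread. All 14 genes of NK and cytotoxic cells lay above 0, with a median of 0.76 and 6 groups apart, and all 15 of T cells, with a median of 0.54 and 1 apart. Over all genes 46% lay above 0 and 3.34% were apart on this side. Nkg7, a granule protein, read 9.03, 8.63, 7.55 and 8.07 without the drug and 8.88, 10.29, 9.61 and 10.92 with it, a difference of 1.60 (SE 0.47, adjusted p = 0.283). Ncr1, the NKp46 receptor, read 6.72, 6.42, 6.29 and 6.26 without the drug and 7.17, 7.64, 7.03 and 8.49 with it, a difference of 1.16 (SE 0.30, adjusted p = 0.234). Klrd1, the CD94 receptor chain, read 6.97, 6.82, 6.34 and 6.56 without the drug and 7.09, 7.81, 7.37 and 8.68 with it, a difference of 1.07 (SE 0.33, adjusted p = 0.297). Combination array 2 was the highest array for each of these, and PD-0325901 array 2 next, while PD-0325901 array 1 was close to the vehicle arrays for Nkg7 and Klrd1. Cd28, the costimulatory receptor of T cells, read 7.01, 6.83, 6.70 and 6.60 without the drug and 7.55, 8.57, 7.78 and 8.37 with it, a difference of 1.28 (SE 0.23, adjusted p = 0.0937). Cd3e, part of the T cell receptor complex, read 9.09, 8.57, 8.53 and 8.69 without the drug and 8.74, 9.53, 9.28 and 9.77 with it, so that vehicle array 1 was above PD-0325901 array 1. The T cell median was 0.27 without combination array 2. It was 0.25 for PD-0325901 against vehicle and 0.74 for the combination against rapamycin. In the same order the median of NK and cytotoxic cells was 0.43 and 1.06. Ccl5, a chemokine of such cells, read 10.60, 9.98, 10.50 and 9.92 without the drug and 11.08, 11.51, 10.83 and 12.21 with it, a difference of 1.16 (SE 0.31, adjusted p = 0.236). The 26 measured interferon response genes all lay above 0 with a median of 0.43 (0.27 without combination array 2). Groups were apart for only 1 of them, Irf9 (named after the values were seen), against 3.34% of all genes on this side. The list's score overlapped, at -0.11 to 0.72 with the drug and -0.61 to 0.25 without.

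Among 28 chemokines the median was 0.06 and its sign turned with single arrays (-0.03 without rapamycin array 2). Ccl8 read 8.69, 9.08, 8.85 and 8.05 without the drug and 11.50, 11.15, 9.92 and 8.90 with it, highest on the PD-0325901 arrays. Ccl3 read 9.96, 8.55, 9.16 and 9.95 without the drug and 10.33, 10.57, 10.14 and 10.56 with it, with vehicle array 2 low and the treated arrays above all others by a small margin. Cxcl2, a neutrophil attractant, went the other way and read 7.85, 6.84, 7.2 and 7.64 without the drug and 6.43, 6.72, 6.35 and 6.67 with it, a difference of -0.84 (SE 0.22, adjusted p = 0.228). Il1b, the fever cytokine, read 9.95, 9.44, 8.29 and 8.27 without the drug and 7.91, 7.87, 7.16 and 7.53 with it, a difference of -1.37 (SE 0.40, adjusted p = 0.277). For Il1b the rapamycin arrays lay between the vehicle arrays and the treated arrays. Il18, of the same family, had a difference of 0.44 (SE 0.13). Trem1, an amplifier of inflammation on neutrophils and monocytes, read 7.34, 7.34, 6.96 and 7.50 without the drug and 6.53, 6.83, 6.39 and 6.34 with it, a difference of -0.76 (SE 0.15, adjusted p = 0.110), and its groups did not overlap.

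Il13ra1 (probe set 10599174, chromosome X), the chain with which IL-13 and IL-4 signal outside lymphocytes, read 11.43, 11.51, 11.44 and 11.50 without the drug and 10.96, 10.97, 10.99 and 10.81 with it. It was the only gene of 19938 called lower, by a factor of 1.45 (-0.54, SE 0.07, adjusted p = 0.0413), and the arrays within each side agree within 0.2. Of 25 cytokine receptor genes measured, 6 had groups apart on the higher side (3.34% of all genes) and 1 on the lower (2.39%), with a median of 0.24. Csf3r, the receptor of granulocyte colony-stimulating factor, read 8.84, 8.95, 9.20 and 8.57 without the drug and 9.88, 10.13, 9.63 and 10.17 with it, a difference of 1.06 (SE 0.17, adjusted p = 0.0779). Il10ra and Il6ra, the receptor chains of IL-10 and IL-6, had differences of 0.60 (SE 0.14) and 0.68 (SE 0.18).

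Of 21 prostanoid and leukotriene genes 13 lay above 0 and 8 below it. At an unadjusted p under 0.05 there were 5 on the higher side (5.69% of all genes) and 1 on the lower (4.39%). Hpgds, the haematopoietic prostaglandin D synthase, read 9.46, 9.44, 9.22 and 8.98 without the drug and 10.47, 10.32, 10.13 and 10.01 with it, a difference of 0.96 (SE 0.14, adjusted p = 0.0745). Alox5ap, which presents arachidonate to 5-lipoxygenase, read 9.70, 9.91, 9.92 and 10.32 without the drug and 10.89, 10.87, 11.21 and 10.83 with it, a difference of 0.99 (SE 0.15, adjusted p = 0.0745). Tbxas1, the thromboxane synthase, read 9.37, 8.90, 9.12 and 9.36 without the drug and 10.21, 10.17, 10.22 and 9.64 with it, a difference of 0.87 (SE 0.16, adjusted p = 0.105). The receptor of prostaglandin E2, Ptger4, had a difference of 0.77 (SE 0.14). These 4 are the members of the list whose groups were apart (3.34% of all genes on this side). Its median was 0.16 (0.05 when vehicle array 1 was left out, 0.34 for rapamycin array 1 and 0.09 for rapamycin array 2). Lysosomal genes had a median of 0.22, and 19 of 21 lay above 0. Ctsh, a cathepsin with aminopeptidase action, read 10.75, 10.28, 10.44 and 10.37 without the drug and 11.52, 11.46, 11.23 and 11.13 with it, a difference of 0.88 (SE 0.13, adjusted p = 0.0745). The cholesterol transporter Npc1 and the membrane protein Lamp1 had differences of 0.41 (SE 0.10) and 0.30 (SE 0.09), each with groups apart.

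Most paralogs of the scaffold genes that rose did not pass the test. Of 19 genes of the Iqgap, Rassf, Reps, epsin and intersectin families 3 were called, Iqgap2, Rassf4 and Reps2 (0.105% of all genes on this side). The list holds the families of these 3 called genes, so their count follows from that choice and shows no excess over that share. Groups were apart for these 3, for the same reason, and for 1 more, Rassf2 (0.61, SE 0.19), as for 3.34% of all genes. The median was 0.06 (0.11 without rapamycin array 1).

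ERK feedback and target genes lay mostly on the lower side with the drug, and none was called. Among the 7 measured Sprouty and Spred genes, 5 lay below 0 (54% of all genes did), 2 had groups apart (2.39% of all genes on this side) and the median was -0.25. Spred1, the partner that brings neurofibromin to the membrane, read 10.54, 10.59, 10.56 and 10.69 without the drug and 9.96, 9.97, 10.15 and 10.14 with it, a difference of -0.54 (SE 0.07, adjusted p = 0.0568). Spred2 read 10.42, 10.20, 10.52 and 10.63 without the drug and 10.12, 10.12, 10.06 and 10.02 with it, a difference of -0.36 (SE 0.10, adjusted p = 0.237). For both, every treated array was below every array without the drug. Spry4 had a difference of -0.35 (SE 0.15), Spred3 of -0.24 (SE 0.12) and Spry2 of 0.18 (SE 0.28). The 11 dual-specificity phosphatases had a median of -0.11, which was -0.19 when vehicle array 1 was left out, -0.30 for PD-0325901 array 1 and -0.21 for combination array 1. Dusp6, the phosphatase of cytoplasmic ERK, read 11.18, 10.84, 10.58 and 11.49 without the drug and 10.71, 9.76, 10.43 and 10.15 with it, so that PD-0325901 array 1 lay within the range of the arrays without the drug (difference -0.76, SE 0.25). Dusp5, the nuclear one, read 10.34, 9.80, 9.25 and 10.01 without the drug and 9.18, 9.16, 9.24 and 8.83 with it, with rapamycin array 1 barely above combination array 1 (difference -0.75, SE 0.22).

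The later targets of ERK shared 1 direction. All 18 measured genes lay below 0, 6 had an unadjusted p under 0.05 (4.39% of all genes did on this side) and 3 had groups apart. The median was -0.32, and -0.21 without vehicle array 1. Ets2, a transcription factor that ERK phosphorylates, read 10.82, 10.63, 11.33 and 11.55 without the drug and 10.35, 10.37, 10.53 and 10.21 with it, and its difference was -0.37 against vehicle and -1.07 against rapamycin, as the rapamycin arrays were the highest. Etv5, of the same family, read 9.23, 9.58, 9.57 and 9.06 without the drug and 9.02, 8.62, 8.99 and 8.87 with it. Plaur, the urokinase receptor, read 10.22, 9.14, 8.93 and 9.29 without the drug and 8.71, 8.79, 8.72 and 8.20 with it, with vehicle array 1 far above the others. Kcnn4, a potassium channel, and Fosl2, an AP-1 subunit, had differences of -0.72 (SE 0.27) and -0.40 (SE 0.16). Hbegf, a ligand of the EGF receptor, read 10.87, 10.23, 10.38 and 10.72 without the drug and 9.69, 9.09, 9.32 and 9.0 with it, a difference of -1.27 (SE 0.19, adjusted p = 0.0745), or 2.42-fold lower with groups well apart. Ereg, another such ligand, read 8.49, 8.70, 8.07 and 7.34 without the drug and 7.37, 7.50, 7.51 and 8.34 with it, and its difference was -1.16 against vehicle and 0.22 for the combination against rapamycin. Of 7 measured EGF family ligands 5 lay below 0 (54% of all genes did) and 2 above it. Groups were apart for 1 (2.39% of all genes on this side). The median of these ligands was -0.11, with -0.27 against vehicle and 0.008 for the combination against rapamycin.

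Immediate early genes were mixed, with 16 of 21 below 0 (54% of all genes were) and a median of -0.39 (-0.25 without vehicle array 2). The median was -0.37 for PD-0325901 against vehicle and -0.12 for the combination against rapamycin. Fosb read 8.56, 8.6, 8.42 and 8.09 without the drug and 7.80, 7.76, 7.73 and 7.84 with it, a difference of -0.63 (SE 0.12, adjusted p = 0.101). Fos read 9.62, 8.25, 8.29 and 8.10 without the drug and 7.90, 7.44, 7.74 and 7.62 with it, and Nr4a1 read 9.60, 11.01, 8.86 and 8.92 without the drug and 8.48, 8.11, 8.24 and 8.40 with it. The groups did not overlap for these 3 and Maff (-0.39, SE 0.10), against 2.39% of all genes on this side. For Nr4a1, however, the vehicle arrays were much above the rapamycin arrays, so that its difference was -2.01 without and -0.57 with rapamycin. Atf3, a stress-response factor, lay on the higher side at 8.90, 8.23, 8.75 and 8.52 without the drug and 9.05, 9.52, 8.89 and 9.28 with it (0.58, SE 0.18), as did Klf2 (0.28, SE 0.09). Heat shock genes lay below 0 in 11 of 11, with a median of -0.44 and 5 groups apart (2.39% of all genes on this side). Hsph1, a co-chaperone of Hsp70, read 10.87, 10.20, 9.98 and 10.73 without the drug and 9.88, 9.40, 9.40 and 9.47 with it, a difference of -0.91 (SE 0.21, adjusted p = 0.185). Bag3 and Dnaja1, of the same machinery, had differences of -0.44 (SE 0.11) and -0.31 (SE 0.08). Chordc1, an Hsp90 co-chaperone, read 12.72, 10.71, 9.96 and 10.13 without the drug and 9.50, 9.38, 9.81 and 9.57 with it, where vehicle array 1 was 2 log2 units above every other array. The heat shock score was 0.73 on vehicle array 1, 0.02 to 0.22 on the other arrays without the drug and -0.35 to -0.15 on the treated ones.

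Among lower genes whose arrays did not overlap, those with the smallest p besides Il13ra1, Spred1 and Hbegf were these 9, none of them called. Lipg, the endothelial lipase, read 8.21, 7.54, 7.97 and 7.83 without the drug and 6.84, 7.0, 6.80 and 6.89 with it, a difference of -1.0 (SE 0.14, adjusted p = 0.0564). Dll4, the Notch ligand of sprouting endothelium, read 9.49, 9.25, 9.18 and 9.35 without the drug and 8.50, 8.87, 8.38 and 8.55 with it, a difference of -0.74 (SE 0.12, adjusted p = 0.0815). Pvr, the adhesion molecule CD155 that NK and T cell receptors bind, read 10.19, 9.88, 9.98 and 10.21 without the drug and 9.08, 9.41, 9.0 and 9.42 with it, a difference of -0.84 (SE 0.13, adjusted p = 0.0750). That every treated array was lower than every array without the drug was a condition for naming these 9 genes. Tagln2, an actin-binding protein, had a difference of -0.54 (SE 0.08), Myo7a, an unconventional myosin, of -0.67 (SE 0.11) and Ephb1, an ephrin receptor, of -0.45 (SE 0.08). The zinc finger genes Zfp280c and Zfp275 and Vma21, an assembly factor of the vacuolar proton pump, all on the X chromosome, had differences of -0.56, -0.56 and -0.66 (SE 0.09, 0.09 and 0.11). Endothelial markers had a median of -0.37 (-0.24 without rapamycin array 1, which had the highest endothelial score, 0.61). It was -0.08 for PD-0325901 against vehicle and -0.67 for the combination against rapamycin. Groups were apart for 1 of 14 (2.39% of all genes on this side). That was Emcn, a sialomucin of veins and capillaries, at 10.78, 10.20, 10.99 and 10.67 without the drug and 9.69, 10.18, 9.98 and 10.11 with it. Flt1, a VEGF receptor, read 9.85, 9.06, 9.46 and 9.51 without the drug and 8.45, 9.12, 8.61 and 8.79 with it, a difference of -0.73 (SE 0.19, adjusted p = 0.240). Of 12 pericyte and smooth muscle markers 4 lay above 0 and 8 below it, 1 had an unadjusted p under 0.05 and groups apart, and the median was -0.35 (-0.18 when rapamycin array 2 was left out and -0.23 for PD-0325901 array 1). That gene, Mcam, shared by pericytes and endothelium, read 10.81, 10.45, 10.72 and 10.83 without the drug and 9.80, 10.11, 9.99 and 9.45 with it, a difference of -0.87 (SE 0.16, adjusted p = 0.0954).

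No matrix or hypoxia gene was called. Of 21 matrix genes 8 lay above 0 and 13 below it, 1 and 5 of them at an unadjusted p under 0.05, and none had groups apart. The matrix median was -0.06, and it ranged from -0.14 without rapamycin array 2 to -0.00079 without rapamycin array 1. The genes of smallest p in the list follow, which are on the lower side. Mmp13, a collagenase, read 9.86, 7.36, 8.77 and 9.80 without the drug and 6.61, 7.09, 6.93 and 7.54 with it, a difference of -1.90 (SE 0.54, adjusted p = 0.267). Mmp10, a stromelysin, read 8.97, 9.17, 9.23 and 7.46 without the drug and 7.44, 7.21, 7.09 and 7.58 with it. Its difference was -1.37 (SE 0.38, adjusted p = 0.255, limma). Without rapamycin array 2, the 1 array without the drug at the treated level, it was -1.79 (SE 0.14, adjusted p = 0.0265, limma). Leaving out the array that disagrees favours a small p, so passing the threshold there is only a description. Timp1, a protease inhibitor, read 12.37, 11.77, 11.53 and 12.29 without the drug and 11.26, 11.27, 11.56 and 10.36 with it, with combination array 2 the lowest. Car9, the carbonic anhydrase that hypoxia switches on, read 9.35, 8.46, 7.84 and 8.50 without the drug and 7.16, 7.21, 6.84 and 7.08 with it, a difference of -1.47 (SE 0.28, adjusted p = 0.108), or 2.77-fold lower. P4ha1, a collagen hydroxylase of the same response, read 11.91, 11.48, 11.39 and 11.21 without the drug and 11.03, 11.16, 10.58 and 11.14 with it. These 2 were the only ones of 18 hypoxia genes with groups apart (2.39% of all genes on this side), and the list's median was -0.22. Sterol and fatty acid synthesis genes had 21 of 24 members below 0, 4 groups apart (2.39% of all genes on this side) and a median of -0.23. Insig1, the sterol-sensing brake, read 9.76, 10.09, 10.48 and 10.05 without the drug and 9.49, 9.24, 9.51 and 9.30 with it, a difference of -0.71 (SE 0.15, adjusted p = 0.133). Cyp51, the lanosterol demethylase, read 9.08, 8.86, 9.14 and 9.55 without the drug and 8.38, 7.49, 8.55 and 8.09 with it, a difference of -1.03 (SE 0.24, adjusted p = 0.183). Srebf2, the transcription factor of the pathway, read 10.91, 10.83, 10.73 and 11.47 without the drug and 10.53, 9.62, 10.68 and 10.55 with it, and Stard4, a cholesterol carrier, had a difference of -0.31 (SE 0.12). For each of these 4 sterol genes every treated array was below every array without the drug, with PD-0325901 array 2 the lowest.

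Proliferation genes lay below 0 in 29 of 30 for G1/S and DNA replication, with a median of -0.25, and no member had groups apart. Rapamycin array 1 was the lowest array of this list, at a score of -0.53, and without it the median was -0.46 (-0.15 without vehicle array 1). Cdc45, a replication helicase subunit, read 9.45, 9.30, 9.01 and 9.22 without the drug and 9.16, 8.78, 8.84 and 8.53 with it, and E2f1, the factor that starts the S phase programme, read 9.20, 9.59, 9.0 and 9.45 without the drug and 8.85, 9.02, 9.01 and 8.90 with it. Sesn1, a p53 target that restrains mTORC1, read 9.45, 9.67, 10.07 and 9.74 without the drug and 10.57, 10.54, 10.68 and 10.15 with it, a difference of 0.75 (SE 0.16, adjusted p = 0.132). The p53 target list itself had a median of -0.06, whose sign turned with single arrays. Of the MAPK cascade genes, Map2k1 and Map2k2, which encode the drug's targets, had differences of -0.28 (SE 0.13) and -0.13 (SE 0.10), Erbb2 of -0.33 (SE 0.14) and Rasal3, a Ras GTPase activator of leukocytes, of 0.42 (SE 0.12). Schwann cell markers had a median of 0.02 over 12 genes, which ranged from -0.015 without combination array 2 to 0.07 without vehicle array 1. Gap43, a growth-cone protein, read 7.70, 9.60, 7.66 and 7.86 without the drug and 9.67, 8.99, 9.68 and 9.06 with it, Cdh19, a cadherin of the lineage, read 5.44, 5.95, 5.66 and 5.66 without the drug and 6.98, 7.02, 5.40 and 7.34 with it, and Pmp22, a myelin protein, read 11.03, 11.77, 12.52 and 11.23 without the drug and 12.59, 12.49, 12.18 and 12.28 with it. Vehicle array 2 was among the treated arrays for Gap43, combination array 1 among those without the drug for Cdh19 and rapamycin array 1 among the treated for Pmp22.

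**Figure D3:**
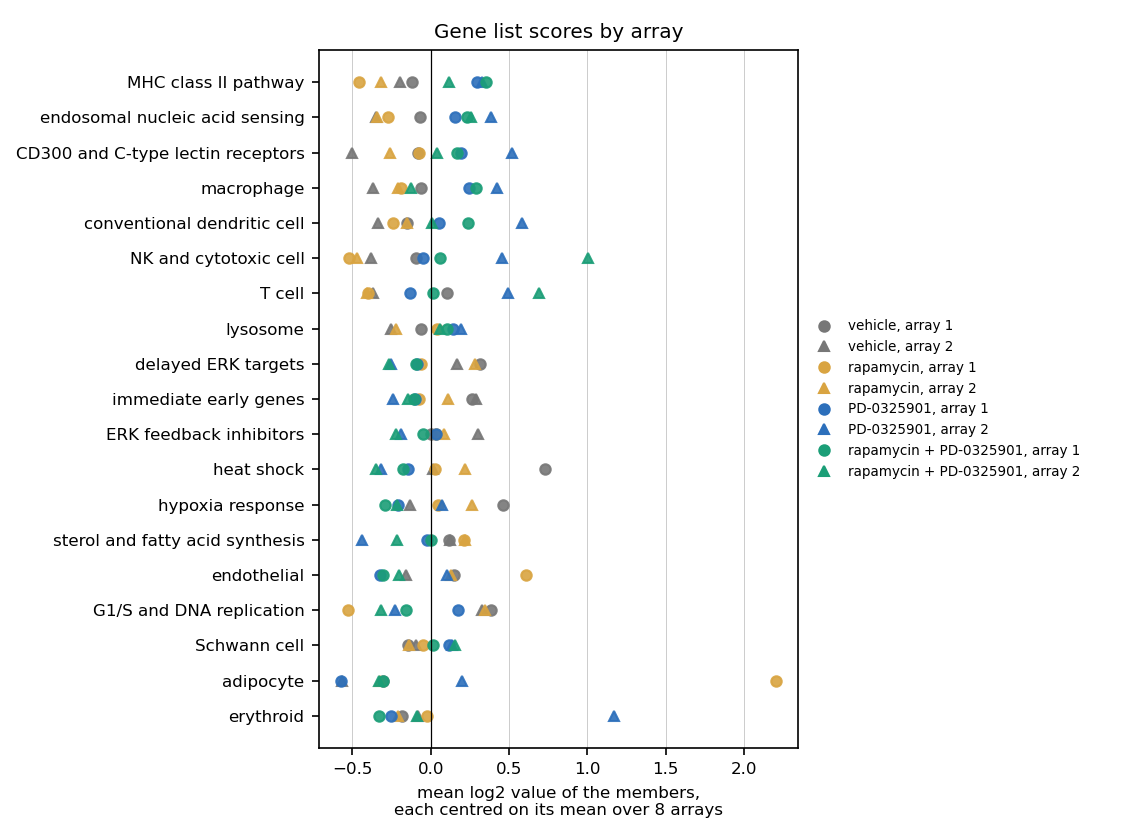
Each point is 1 array's score for a gene list (vertical axis), the mean log2 value of its members after each was centred on its mean over 8 arrays (horizontal axis). Arrays with PD-0325901 (blue, green) lie to the right of all those without it for the MHC class II, endosomal sensing, lectin, conventional dendritic cell, NK, lysosome and Schwann cell lists and to the left for delayed ERK targets, immediate early genes, heat shock and sterol synthesis; rapamycin array 1 stands far right for adipocyte genes (2.20) and PD-0325901 array 2 for erythroid genes (1.17).

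Does the drug's difference recur when rapamycin is present? PD-0325901 minus vehicle and the combination minus rapamycin share no array, so each can be read in the other. Neither is balanced for the Xist and Y-linked pattern. Across genes the 2 differences correlated at a Pearson r of 0.378 and a Spearman rho of 0.338, a description over 19938 genes that are not independent. The r was 0.230 when vehicle array 1 was left out, 0.104 for rapamycin array 2 and 0.245 for combination array 2. The 100 genes highest by limma's statistic in PD-0325901 against vehicle had a median difference of 0.86 there and 0.55 in the combination against rapamycin, where 97 of them lay above 0 (48.3% of all genes did). The 100 lowest had medians of -0.62 and -0.28, and 80 lay below 0 (51.7% of all). Chosen in the opposite order, 92 of the 100 highest (46.2% of all genes lay above 0) and 86 of the 100 lowest (53.8% below 0) kept their sign, with medians of 0.81 and -0.69 where chosen and 0.63 and -0.26 in the arrays without rapamycin. Tested alone, PD-0325901 against vehicle called 0 genes (1165 at an unadjusted p under 0.05, 5.84%), and the combination against rapamycin called 0 (1327, 6.66%, limma). Of the 200 genes chosen with rapamycin 178 kept their sign, and 104 did without rapamycin array 2.

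**Figure D4:**
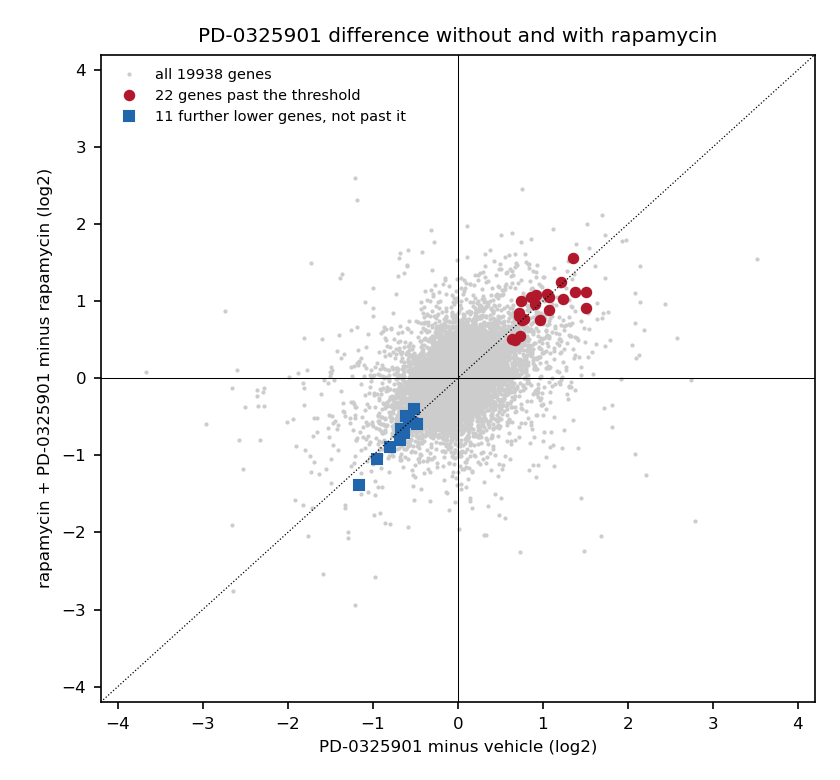
Each point is a gene, with its log2 difference between PD-0325901 and vehicle on the horizontal axis and between the combination and rapamycin on the vertical axis; the dotted line marks equality. Red points are the 22 genes past the threshold. Blue squares are the 11 further lower genes with the smallest p among those whose arrays did not overlap. Both sets were chosen on all 8 arrays by a fit that favours like differences in both settings. Their place near the line was favoured by that choice.

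The 22 genes were called on all 8 arrays by a fit that counts any dependence on rapamycin as spread within a side, so genes with like differences in both settings were favoured and their values here are a description. Cd300c2 differed by 0.86 from vehicle and 1.05 from rapamycin, Ciita by 1.07 and 1.05, Iqgap2 by 1.21 and 1.25, and Il13ra1 by -0.51 and -0.57. Rassf4 was the most uneven, at 1.50 and 0.91. In the interaction of the drugs, fitted with limma as 4 group means, 0 genes passed the threshold and 434 had an unadjusted p under 0.05 (2.18% of genes). The interaction also carries the difference in Xist and Y-linked pattern between vehicle and rapamycin arrays. Dependence on rapamycin and sex cannot be told apart in it. Without vehicle array 2, 2 olfactory receptor genes passed, Olfr846 and Olfr847, which were named after their values were seen. Among the genes with the smallest interaction p, Tnfsf18, the ligand of the GITR receptor, read 6.18, 6.05, 6.22 and 6.24 without the drug and 7.32, 7.37, 6.37 and 6.13 with it, so that only the 2 PD-0325901 arrays were high (interaction -1.21). Palld, an actin-bundling protein, read 10.59, 10.88, 9.69 and 9.96 without the drug and 10.53, 10.17, 11.13 and 10.78 with it, lower than vehicle with PD-0325901 alone and higher than rapamycin in the combination (interaction 1.52). Rbmx, an RNA-binding protein, read 9.06, 9.21, 10.04 and 10.04 without the drug and 8.88, 9.28, 8.82 and 8.84 with it, with both rapamycin arrays high.

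Rapamycin, split the same way over the same 8 arrays, gave 0 genes past the threshold in limma's fit and 1098 at an unadjusted p under 0.05 (5.51% of genes), and the arrays of 668 genes did not overlap (3.35%). Both vehicle arrays carry the Y-linked pattern and both rapamycin arrays the Xist pattern, so between those groups sex and drug cannot be told apart. In the test of the PD-0325901 difference against the rapamycin difference, 0 genes passed and 1467 had an unadjusted p under 0.05 (7.36%, limma).

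Genes lower with PD-0325901 were unevenly spread over chromosomes. Of 739 X-linked genes 122 were lower at an unadjusted p under 0.05, which is 16.5% against 4.39% of all genes, and 120 were with the Xist and Y-linked pattern as a term. Chromosome 5 followed with 11.8%. On the higher side chromosome 8 had 14.6% and chromosome 17 10.7%, against 5.69% of all genes. The median over a chromosome's genes, each centred over the arrays, differed between arrays as well. Only genes with a mean above the median level of all genes entered it, 294 of 739 for X and 558 of 955 for chromosome 8. For X it was 0.04 to 0.26 on the arrays without the drug, -0.25, -0.09 and -0.20 on PD-0325901 arrays 1 and 2 and combination array 2, and 0.03 on combination array 1. For chromosome 8 it was 0.28 on combination array 1 and -0.28 on rapamycin array 1. Single arrays moved for other chromosomes, with 0.36, 0.35 and 0.37 for chromosomes 12, 13 and 18 on rapamycin array 2. Of the 22 genes 5 are X-linked, 4 that rose and Il13ra1, while X holds 739 of the 19856 genes with a known chromosome. On the higher side 3.38% of X-linked genes had an unadjusted p under 0.05, against 5.69% of all genes. The part of such chromosome-wide shifts in the differences of single genes was not tested.

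**Figure D5:**
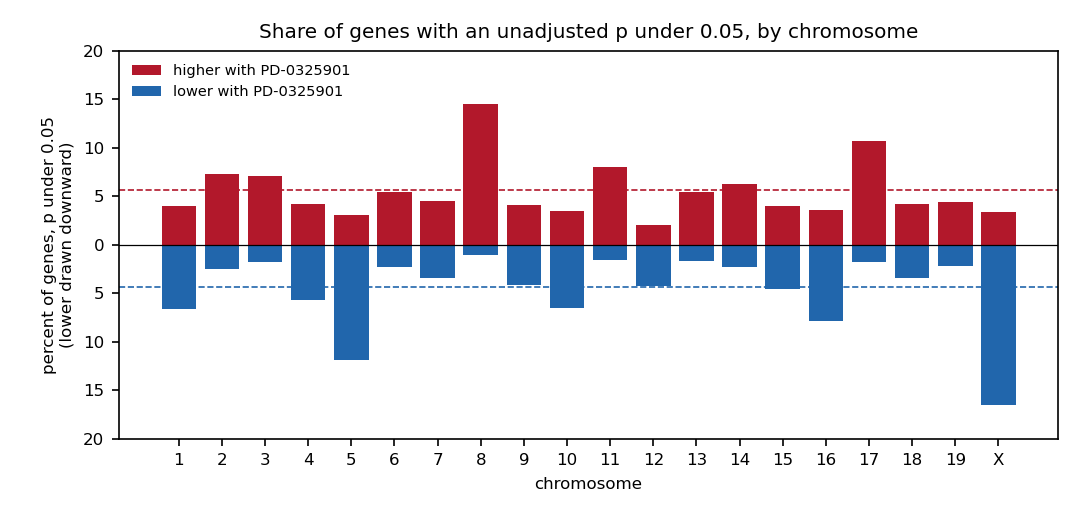
Bars give, for each chromosome (horizontal axis), the percent of its genes with an unadjusted p under 0.05 in limma's fit, higher with PD-0325901 drawn upward and lower drawn downward. Dashed lines mark the shares over all genes, 5.69% and 4.39%; chromosome X (16.5%) and 5 (11.8%) reach furthest down and chromosome 8 (14.6%) furthest up.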

How the data were processed

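Total RNA of 8 tumours was amplified and labelled for whole-transcript arrays, per the labels. The deposited log2 values, 1 per probe set and array, are the authors' own. For background correction and normalization, a method is not given in the sources used here. Their log2 scale was read from the range of the values (3.36 to 14.36). Of 35512 probe sets 21789 had 1 gene symbol in the platform annotation, 1621 had several and 12102 had none. Only those with 1 symbol were used, and for 999 genes with several probe sets the one with the highest mean was taken, leaving 19938 genes. Values were used as deposited. Groups of 4 arrays were compared with limma 3.58.1 in R 4.3.3 (lmFit, eBayes, Benjamini-Hochberg over all genes, threshold 0.05), and the script was tested on simulated data. An SE is limma's moderated standard error of a log2 difference with 4 arrays on each side, and a score is the mean of a list's centred log2 values. The number of arrays limits the precision. The text names every called gene, the 12 non-overlapping lower genes of smallest p, up to 6 genes of smallest p in each list described (any gene of a list of at most 15), Nf1, Map2k1 and Map2k2, and genes of smallest interaction p. The comparison, the gene lists and these rules were chosen with earlier results of these data known. The arrays were compared as unpaired. Of 6 correlations between deviations of same-numbered arrays (-0.278 to 0.183) 1 was over 0.1, that of PD-0325901 with the combination. With so few arrays in a group these correlations cannot decide whether replicate numbers pair the arrays. Other normalizations, filters, fits and left-out arrays were tried.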

Additional observations from a re-analysis of the deposited data

Results flagged for a closer look

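In 25 of 390 groups of 4 arrays checked, 1 array lay farther from the other 3 than Dixon's test for a lone value allows. Chance alone marks about 1 in 20 such groups. Combination array 2 stood apart from the other treated arrays for Lmo2 (10.39), Tk2 (8.918), Plaur (8.198), Csf1r (11.72) and Tbxas1 (9.638) on the low side and for Ereg (8.341) on the high side. Combination array 1 stood apart for Slc15a4 (9.656, low) and Alox5ap (11.21, high). PD-0325901 array 1 was low for Clec9a (6.558) and high for Hsph1 (9.878), and PD-0325901 array 2 was low for Srebf2 (9.617) and high for Rbmx (9.284) and for the erythroid score (1.17).

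Among the arrays without the drug, vehicle array 1 was high for Fos (9.621), Fcgr1 (9.763) and the T cell score (0.1049). Vehicle array 2 was low for Clec4b1 (5.146) and high for Gap43 (9.597). Rapamycin array 1 was low for H2-Ob (7.537), the ribosome biogenesis score (-0.507) and the G1/S and DNA replication score (-0.5299), and high for Clec9a (6.692), the mast cell score (1.103) and the adipocyte score (2.204). Rapamycin array 2 was low for Mmp10 (7.458).

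Palld was lower with PD-0325901 than with vehicle by -0.39 and higher in the combination than with rapamycin by 1.13. The interaction was 1.516 and did not pass the threshold after adjustment over all genes in limma's fit. Among 13722 probe sets without a single gene symbol, which were not used for genes, 1 passed an adjusted p of 0.05 with against without PD-0325901 (limma, adjusted p = 0.0403), and 993 had an unadjusted p under 0.05.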

How the results depend on the processing

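The count of 22 genes was the least stable value. It was 4 with each array centred on its median, 12 among genes above the median level, 6 with a variance trend and robust prior, 0 with rapamycin as an additive term, 0 for the main effect in a fit of 4 group means, and 109 at an adjusted p under 0.1. The replicate block, a fit with the replicate number as a term, gave 0 genes (smallest adjusted p 0.0540, limma). Alternatives chosen after seeing the data gave 1 with the Xist and Y-linked pattern as a term and 7 without X and Y genes. They gave 0 with arrays numbered 1 left out of both groups with PD-0325901 and 0 with arrays numbered 2 left out. Leaving out 1 array gave 0 to 65 genes, and 0 to 2 for the interaction, where the lone array of a group is assumed to vary like the others. The correlation between the differences without and with rapamycin ranged from 0.104 to 0.448 over left-out arrays, and the number of 200 genes chosen with rapamycin that kept their sign from 104 to 174. For named genes and each alternative, 2639 values kept direction and side of the threshold, 327 kept only the direction, 14 newly passed and 3 turned. Rfxap ranged from -0.015 to 0.099 over left-out arrays and was -0.063 with arrays numbered 1 left out, and Tlr3 ranged from -0.018 to 0.15. The cause was not tested.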
